A study of Rattus norvegicus with 10 samples.

Results

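The genes compared here are 6 genes of lipoprotein handling, Apoe, Lpl, Pla2g7, Abca1, Lrp1 and Vldlr, in cells grown from skull and limb bone of the rat. They were chosen by name, and each gene was to be represented by its probe with the highest deposited signal averaged over all 10 arrays, a value that does not use the site. Of 6 listed genes, 5 had a probe under that symbol, among 13336 genes with a symbol and 22517 probes in all. Each of the 5 had 1 probe, so brightness decided nothing among probes, and Lrp1 was not analysed here. The names were put forward with earlier results of these arrays known, so the p-values given for them are not independent support for their direction.

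Cells came from the calvarial bones that roof the skull (S-Bdc) and from the ulna of the forelimb (L-Bdc) of the same 5 male CD rats. The labels name no treatment and no altered genotype, and the design text calls the animals adult. The bones had been cleared of soft tissue, epiphyses and marrow. Cells of the third collagenase digest were expanded in medium with newborn calf serum to passage 3 and taken at 95% confluence, and mRNA was measured on 1 Illumina rat BeadChip array per culture. The methods used here name no sorting step, so a culture may hold more than osteoblasts.

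Lipoproteins carry cholesterol and triglyceride between tissues. Lipoprotein lipase, the product of Lpl, splits their triglyceride at the cell surface, and apolipoprotein E, the product of Apoe, is the ligand by which remnants are taken up through receptors at the cell surface, Vldlr among them. Abca1 moves cholesterol and phospholipid out of the cell onto lipid-poor acceptor particles, and Pla2g7 encodes platelet-activating factor acetylhydrolase, a secreted phospholipase that travels on lipoproteins. In bone, osteoblasts are known to take up lipoproteins, and Apoe is also made by macrophages and fat cells.

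S-Bdc gave more signal than L-Bdc for 4 of the 5 measured genes, namely Pla2g7, Apoe, Abca1 and Lpl, and no called difference was found for Vldlr. Of all probes measured, 9.10% were called between the sites (2050 of 22517, limma, adjusted p under 0.05), 4.43% higher in S-Bdc (997) and 4.68% lower (1053). In deposited signal the S-Bdc means stood 7.34-fold (Pla2g7), 3.06-fold (Apoe), 2.61-fold (Abca1) and 1.39-fold (Lpl) above the L-Bdc means. All 4 were higher in S-Bdc in 5 of 5 rats. In all 4, rat 2 had the smallest difference of the 5 rats on the log2 scale.

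The promoters of the 3 genes whose sites did not overlap are shown so that the sequence at their start sites stands beside the values. RefSeq (build GRCr8) gave a 300-base promoter, 250 bases before the start and 50 from it on, for 4 of the measured genes, and none is shown for Lpl. All 3 lie on the minus strand and are written 5′ to 3′ along the gene: Apoe at chr1:88485767-88486066, Pla2g7 at chr9:24901698-24901997 and Abca1 at chr5:72596424-72596723. Capitals mark matches to the motifs searched.
Apoe: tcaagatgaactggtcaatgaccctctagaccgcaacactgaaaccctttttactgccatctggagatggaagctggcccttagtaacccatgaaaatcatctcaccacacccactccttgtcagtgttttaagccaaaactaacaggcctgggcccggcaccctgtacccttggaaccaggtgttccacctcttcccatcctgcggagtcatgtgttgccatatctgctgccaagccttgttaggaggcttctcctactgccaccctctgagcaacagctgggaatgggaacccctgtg
Pla2g7: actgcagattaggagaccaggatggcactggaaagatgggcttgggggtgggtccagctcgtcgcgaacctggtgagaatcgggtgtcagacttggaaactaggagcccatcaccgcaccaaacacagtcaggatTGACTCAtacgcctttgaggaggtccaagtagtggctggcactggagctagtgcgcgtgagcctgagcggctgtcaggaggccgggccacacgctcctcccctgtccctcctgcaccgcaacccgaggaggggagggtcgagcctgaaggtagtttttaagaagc
Abca1: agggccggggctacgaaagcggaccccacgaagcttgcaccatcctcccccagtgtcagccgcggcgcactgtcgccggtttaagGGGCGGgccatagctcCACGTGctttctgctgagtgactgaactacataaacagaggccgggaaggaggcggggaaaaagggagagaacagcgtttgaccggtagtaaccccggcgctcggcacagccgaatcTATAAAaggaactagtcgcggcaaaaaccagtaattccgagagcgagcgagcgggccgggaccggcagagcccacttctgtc

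Motifs were searched on both strands with 10 patterns. The capitals in Pla2g7 are an AP-1 site (TGANTCA), 115 bases before the start, a pattern that 7.33% of all 33469 promoters of the same length hold. In Abca1 they are an Sp1 box (GGGCGG) at 165 bases, an E box (CACGTG) at 149 bases and a TATA box (TATAAA) at 32 bases before the start, held by 33.1%, 6.42% and 14.2% of promoters. Apoe had 0 matches. The Vldlr promoter, at chr1:234240436-234240735 on the plus strand, held 3 Sp1 boxes, all on the opposite strand. The other patterns had 0 matches in these 4 windows: CCAAT (37.5% of promoters), the nuclear receptor element AGGTCA (16.2%), its direct repeats for PPAR, with 1 base between the copies (0.0538%), and for LXR, with 4 bases between them (0.00598%), the sterol element TCACNCCAC (1.12%) and the PU.1 site GAGGAAG (12.4%). AGGTCA lies inside both direct repeats, so those searches overlap. GC content was 52.7% (Apoe), 59.7% (Pla2g7), 61% (Abca1) and 73% (Vldlr), beside a median of 51.7% over all promoters.

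Pla2g7 (NM_001009353), the acetylhydrolase that inactivates platelet-activating factor and oxidised phospholipids, had deposited signals of 431, 469, 755, 685 and 923 units in S-Bdc of rats 1 to 5, against 74.8, 119, 82.6, 87.1 and 81.2 units in L-Bdc. The lowest S-Bdc culture lay far above the highest L-Bdc culture, by 1.45 on the normalised log2 scale. S-Bdc averaged 653 ± 205 units and L-Bdc 88.9 ± 17.3 units (SD, n = 5 each). The fitted log2 difference was 2.20 ± 0.15 (SE), or 4.60-fold, with a 95% interval of 1.86 to 2.54 and an adjusted p of 4.19e-05. By rat, the log2 difference was 1.85, 1.55, 2.50, 2.33 and 2.78, so rats 1 and 2 lay below the other rats. The size of this difference ranked 13 of 22517 probes.

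Apoe (NM_138828) had 630, 386, 570, 784 and 850 units in S-Bdc of rats 1 to 5, against 174, 235, 245, 211 and 186 units in L-Bdc. The sites did not overlap, but rat 2 came close, with the lowest S-Bdc signal. The S-Bdc cultures were also more spread than the L-Bdc cultures, with a mean normalised log2 signal of 9.41 ± 0.40 for S-Bdc cultures and 8.07 ± 0.16 for L-Bdc cultures (SD, n = 5 each). Apoe rose by 1.34 ± 0.16 (SE) on that scale, 2.53-fold, with an interval of 0.99 to 1.69 and an adjusted p of 0.000697. Single rats differed by 1.55, 0.59, 1.04, 1.63 and 1.88. The span between rats 2 and 5 was therefore about as large as the mean difference itself.

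Lpl (NM_012598) had 5752, 4691, 5359, 5977 and 4264 units in S-Bdc, against 3563, 3858, 3555, 4786 and 2941 units in L-Bdc. Here the sites overlapped, since S-Bdc of rat 5 lay below L-Bdc of rat 4. Within each rat S-Bdc was higher, by 0.68, 0.28, 0.59, 0.32 and 0.53 on the log2 scale. Rat 4 was the highest and rat 5 the lowest at both sites. The fitted difference was 0.48 ± 0.07 (SE), 1.39-fold, with an interval of 0.33 to 0.63 and an adjusted p of 0.00187. Lpl was no longer called without normalisation between arrays (adjusted p = 0.0519) or on deposited values with a floor of 16 units (adjusted p = 0.0876).

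Abca1 (NM_178095), the cholesterol exporter, was dim, with 52.7, 50.5, 55.7, 55.9 and 68.8 units in S-Bdc, against 8.36, 23.6, 26.6, 27.2 and 22.9 units in L-Bdc. The L-Bdc culture of rat 1 lay within the background range, taken as values up to 8.514 units, and the other 9 cultures lay above it. The sites did not overlap. The fitted log2 difference was 0.51 ± 0.06 (SE), 1.42-fold, with an adjusted p of 0.000843 and an interval of 0.37 to 0.65. This scale adds an offset of 50 to the signal, which understates changes of dim probes, and the fitted difference ran up to 1.30 where deposited values with a floor of 16 units were used, at an adjusted p of 0.0526. By rat it was 0.71, 0.40, 0.41, 0.40 and 0.63, with rat 1 resting on the background value.

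Vldlr (NM_013155), a receptor for apolipoprotein E particles and for reelin, had 580, 334, 590, 458 and 456 units in S-Bdc, against 328, 391, 457, 421 and 597 units in L-Bdc. S-Bdc was higher in 3 of 5 rats and lower in rats 2 and 5. The fitted difference was 0.12 ± 0.13 (SE) with an adjusted p of 0.745, and its interval ran from -0.17 to 0.42.

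**Figure D1:**
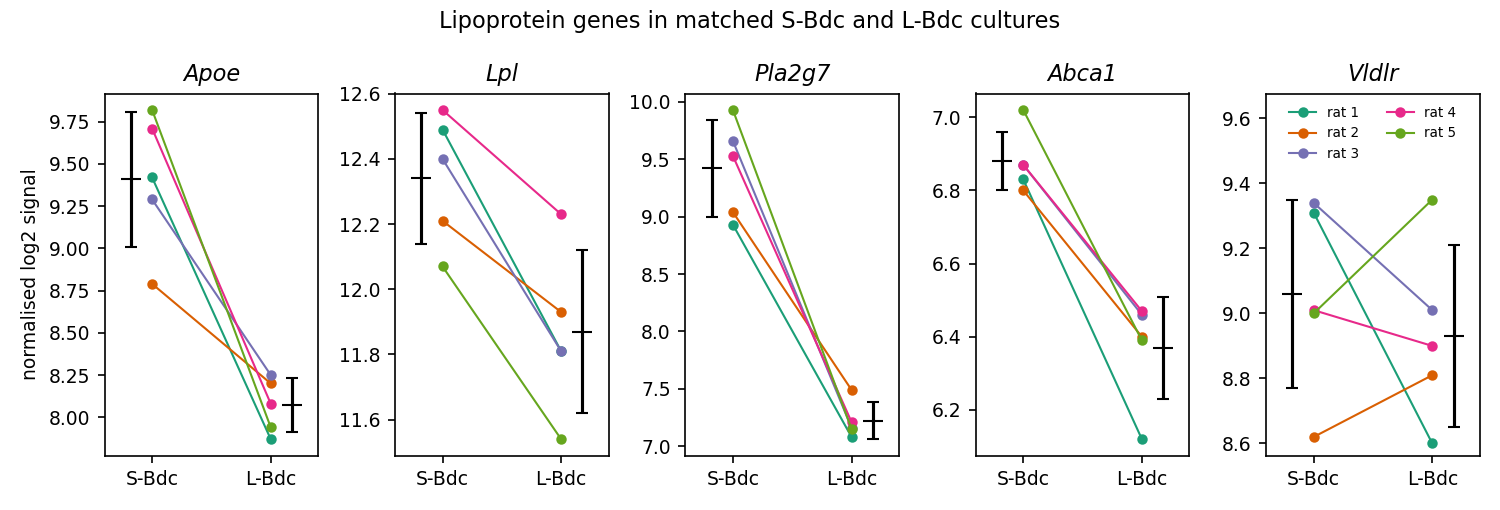
Normalised log2 signal (vertical axis, own range per gene) of the 5 measured genes in S-Bdc and L-Bdc; points are cultures, lines join the cultures of a rat, and bars give the mean and SD of 5 cultures. All 5 lines fall towards L-Bdc for Apoe, Lpl, Pla2g7 and Abca1, while for Vldlr those of rats 2 and 5 run the other way.

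The count of 4 called among 5 measured genes is read only beside the 9.10% of all probes called, because the names were not chosen blind. Among the 12736 probes above background on at least 3 arrays, 7.79% were called higher and 8.25% lower in S-Bdc. The sites did not overlap for 3 of the 5 genes, against 7.00% of all probes (1577). The median difference over all probes was -0.001, and called probes had a median size of 0.397 on the log2 scale. Lpl and Abca1 therefore differed by a little more than that median. All 4 calls held without each rat in turn.

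**Figure D2:**
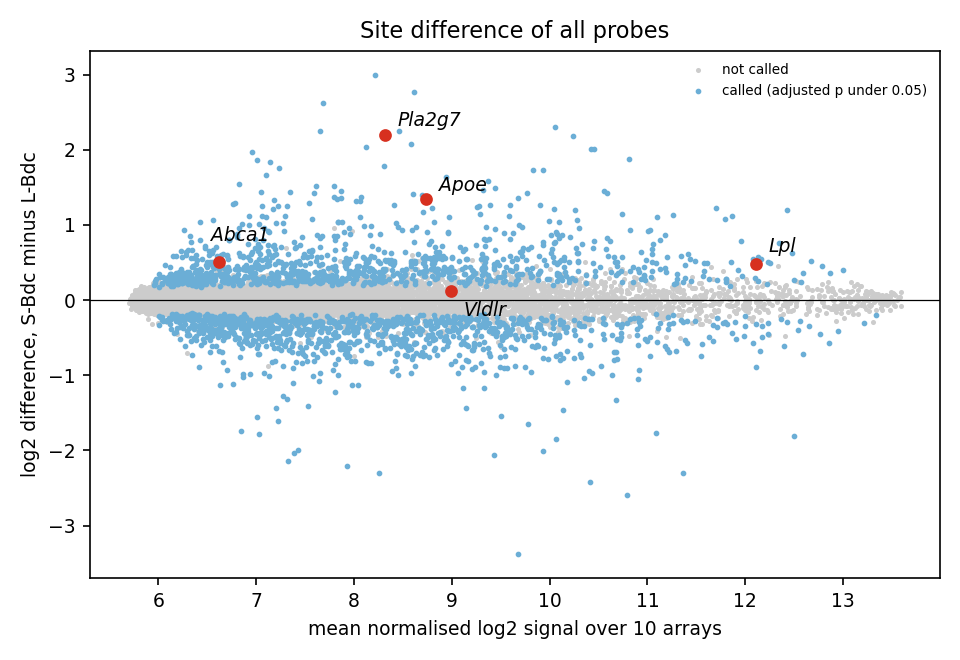
Log2 difference, S-Bdc minus L-Bdc, of all 22517 probes (vertical axis) against the mean normalised log2 signal over 10 arrays (horizontal axis), with called probes in blue and the 5 measured genes in red. Pla2g7 at 2.20 and Apoe at 1.34 lie towards the upper edge of the cloud, while Lpl at 0.48, Abca1 at 0.51 and Vldlr at 0.12 lie at sizes that uncalled probes also reach.

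Partners of these proteins differed by site as well. A2m, the protease inhibitor alpha-2-macroglobulin and a ligand of the Lrp1 receptor, had 902, 1365, 555, 834 and 520 units in S-Bdc, against 41.5, 64.7, 38.7, 21.2 and 61.8 units in L-Bdc. Reln, the secreted ligand of Vldlr and Lrp8, went the opposite way, with 47.7, 20.5, 126, 155 and 76.6 units in S-Bdc, against 990, 574, 662, 646 and 376 units in L-Bdc. No culture crossed to the other site's range in either gene. The fitted differences were 3.00 ± 0.17 (SE) for A2m (adjusted p = 1.57e-05) and -2.31 ± 0.22 (SE) for Reln (adjusted p = 0.000241). The other reelin receptor, Lrp8, gave -0.02 (adjusted p = 0.931), and the reelin adaptor Dab1 was above background on 0 arrays.

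Over 9 lists of lipid genes, 164 of 211 listed genes were measured, and 23 were called higher and 10 lower in S-Bdc. The median difference was 0.007, beside -0.001 over all probes. With the members taken out and dim genes left out, 14.5% of 131 genes were called higher (19) and another 10 lower, beside 7.79% higher and 8.25% lower of all probes filtered alike. These lists too were drawn up with earlier results known, so the counts only describe them. Of the 164 genes, 136 were above background on at least 3 arrays, against 12736 of all 22517 probes. A list share above the 9.10% of all probes is therefore not a result by itself.

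Of 14 measured apolipoproteins, 21.4% were called, beside 9.10% of all probes. Apoe and Apool, a mitochondrial protein of the family (0.34, adjusted p = 0.0199, lost under 5 of 14 alternatives), rose in S-Bdc and Clu, the chaperone clusterin, fell. Clu had a mean of 1094 ± 260 units in S-Bdc and 2309 ± 813 units in L-Bdc (SD, n = 5 each), and the fit put S-Bdc at 0.501 times L-Bdc (adjusted p = 0.00213). Among 21 lipases and lipoprotein-modifying proteins 3 rose and 0 fell (14.3% called, beside 9.10% of all probes). Lpl and Pla2g7 among them are members, named with earlier results known. The other was Angptl4, a secreted inhibitor of lipoprotein lipase, at 1465 ± 403 units in S-Bdc and 673 ± 188 units in L-Bdc (log2 difference 1.05 ± 0.15 SE, adjusted p = 0.00191). Its second probe gave 0.05 (adjusted p = 0.703). That probe was dim, with means of 14.1 units in S-Bdc and 11.5 units in L-Bdc, near the background limit of 8.514 units. It did not repeat the call, but at that level the offset of 50 understates a change. The enzyme Lpl and its inhibitor Angptl4 were thus both called higher in S-Bdc, Angptl4 from 1 of its probes.

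Of 23 receptors and adaptors, 3 rose and 1 fell (17.4% called, beside 9.10% of all probes). Olr1, a receptor for oxidised lipoprotein, averaged 108 ± 25 units in S-Bdc and 246 ± 46.5 units in L-Bdc, a difference of -0.86 ± 0.08 (SE, adjusted p = 0.000157). Scarb2, a lysosomal membrane protein, rose by 0.52 ± 0.11 (SE, adjusted p = 0.0144), a call lost under 3 of 14 alternatives. Mylip, a ubiquitin ligase that removes lipoprotein receptors, was above background in 5 cultures of S-Bdc and 0 of L-Bdc, with deposited means of 15.2 units in S-Bdc and 0.568 units in L-Bdc, an increase of at least 1.09-fold (adjusted p = 0.00244). Dab2, an endocytic adaptor, rose by 0.24 ± 0.06 (SE, adjusted p = 0.0415) in 4 of 5 rats, a call lost under 10 of 14 alternatives.

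The cholesterol efflux and LXR list had 6 genes higher and 1 lower of 26 (26.9% called, beside 9.10% of all probes). LXR is the nuclear receptor pair that senses oxysterols and drives genes such as Abca1. Lpcat3, a phospholipid-remodelling enzyme, rose by 0.59 ± 0.06 (SE, adjusted p = 0.000254), with 896 ± 36.1 units in S-Bdc and 578 ± 59.3 units in L-Bdc, and its second probe gave 0.61 (adjusted p = 0.00123). Cyp27a1, which makes the oxysterol 27-hydroxycholesterol, rose by 0.57 ± 0.09 (SE, adjusted p = 0.00435), and Scd, the stearoyl-CoA desaturase, by 0.48 ± 0.09 (SE, adjusted p = 0.0072). Ch25h, which makes 25-hydroxycholesterol, fell by 0.50 on the log2 scale (adjusted p = 0.0175). Its sites overlapped, and it was lower in 4 of 5 rats. The receptors themselves gave 0.09 (Nr1h2, adjusted p = 0.476) and 0.00 (Nr1h3, adjusted p = 0.997), and the targets Abcg1 and Srebf1 gave 0.07 and 0.12 (adjusted p = 0.589 and 0.489). Abcg1 averaged 9.93 units in S-Bdc and 6.7 units in L-Bdc, near the background limit of 8.514 units. It was above that limit in 3 cultures of S-Bdc and 1 of L-Bdc, so a change could have been missed. The called genes of this list also held Abca1, Mylip and Abca2 (0.26, adjusted p = 0.0219), all higher in S-Bdc. The receptors, Abcg1 and Srebf1 were not called. Those uncalled genes were picked after their values were seen, and the part of LXR was not tested.

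Of 24 platelet-activating factor and phospholipase A2 genes, 2 rose and 2 fell (16.7% called, beside 9.10% of all probes). Ptafr, the receptor for platelet-activating factor, rose by 0.52 ± 0.12 (SE, adjusted p = 0.0264), with 109 ± 21.9 units in S-Bdc and 57.6 ± 16.7 units in L-Bdc, a call lost under 5 of 14 alternatives. Pla2g4a, the cytosolic phospholipase that releases arachidonic acid and the precursor of the factor, averaged 128 ± 19.5 units in S-Bdc and 254 ± 63.2 units in L-Bdc (log2 difference -0.72 ± 0.11 SE, adjusted p = 0.0031). Pafah1b2, a subunit of the intracellular acetylhydrolase, fell by 0.44 (adjusted p = 0.0117, lost under 3 of 14 alternatives). The secreted acetylhydrolase gene Pla2g7 and this intracellular subunit therefore moved in opposite directions.

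Of 29 fatty acid uptake and PPAR target genes, 6 rose and 1 fell (24.1% called, beside 9.10% of all probes). Cpt2, the inner carnitine palmitoyltransferase of mitochondria, averaged 807 ± 47.7 units in S-Bdc and 438 ± 19.2 units in L-Bdc, a difference of 0.80 ± 0.06 (SE, adjusted p = 5.17e-05). Cpt1a, the outer transferase, rose by 0.49 ± 0.10 (SE, adjusted p = 0.0125, lost under 3 of 14 alternatives), and Ech1 (0.35) and the transporter Slc27a1 (0.25) were also called. Acsl3, an acyl-CoA synthetase, fell by 0.37 (adjusted p = 0.0232). The regulator Pparg gave 0.24 (adjusted p = 0.0824) and lay above background in 5 cultures of S-Bdc and 2 of L-Bdc. Cd36 and Fabp4 gave 0.03 and 0.16 (adjusted p = 0.86 and 0.705). Cd36 was near background, with means of 10.6 units in S-Bdc and 9.07 units in L-Bdc, above the limit in 4 and 2 cultures. Of 8 sterol feedback genes, 1 rose and 0 fell (12.5% called, beside 9.10% of all probes). This was Dhcr7, of late cholesterol synthesis, which rose by 0.25 (adjusted p = 0.0473), a call lost under 11 of 14 alternatives.

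Among 13 reelin pathway genes 2 rose and 1 fell (23.1% called, beside 9.10% of all probes), Reln being the gene that fell. The adaptor Nck2 rose by 0.31 ± 0.07 (SE, adjusted p = 0.0187), and its dimmer probe was above background on 0 arrays. The Nck2 call was lost under 6 of 14 alternatives. Of 19 ligands and partners of Lrp1, 5 rose and 3 fell (42.1% called, beside 9.10% of all probes). Beside A2m, Apoe and Lpl, Tfpi, the tissue factor pathway inhibitor, rose by 0.69 ± 0.08 (SE, adjusted p = 0.000608) and App, the amyloid precursor, by 0.75 ± 0.09 (SE, adjusted p = 0.000627). Serpine2, protease nexin, fell by 1.85 (adjusted p = 1.26e-05), with 511 ± 81 units in S-Bdc and 1989 ± 222 units in L-Bdc. Plau, the urokinase protease, and Mmp9, a gelatinase, also fell, by 0.69 and 0.20 (adjusted p = 0.00396 and 0.0493), and the Mmp9 call was lost under 8 of 14 alternatives.

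**Figure D3:**
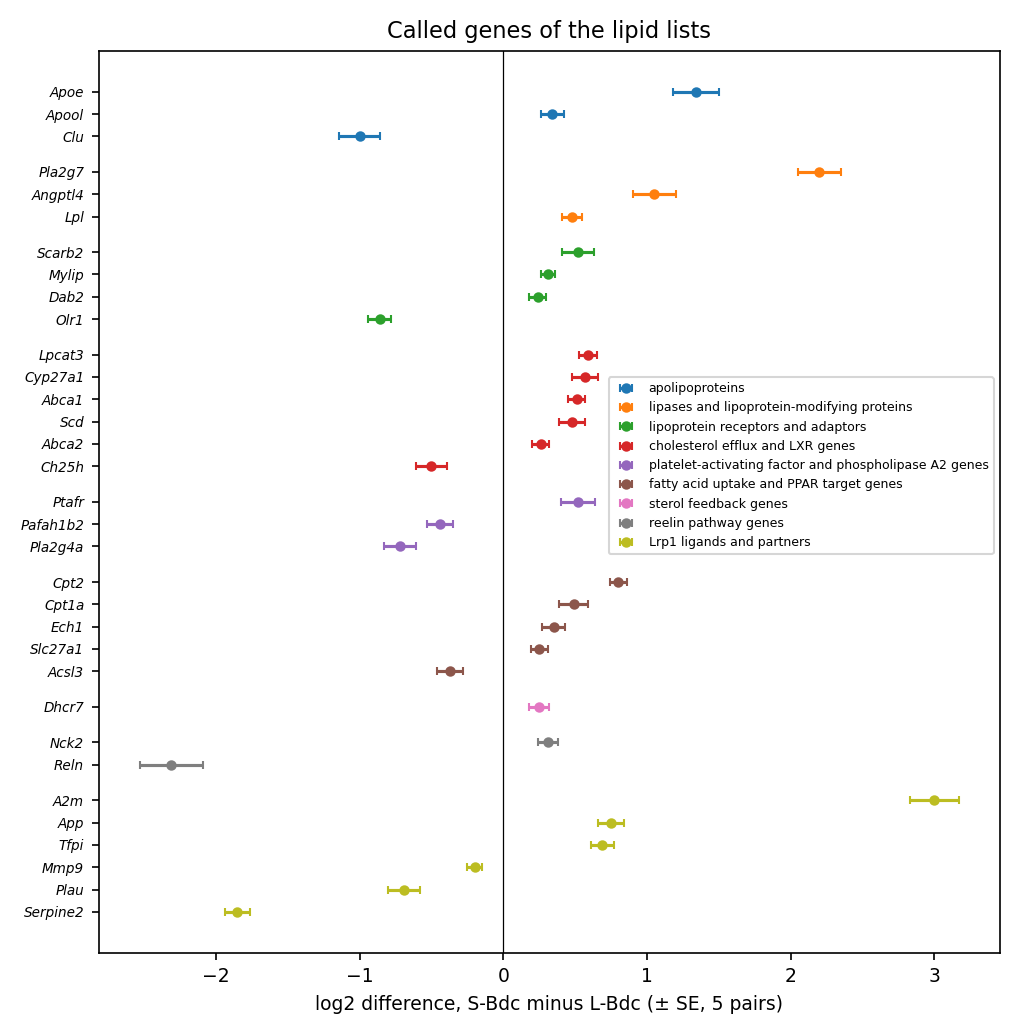
Log2 difference, S-Bdc minus L-Bdc, of the called genes of the 9 lipid lists (horizontal axis, points with SE over 5 pairs), coloured by list, each gene drawn once. A2m (3.00) and Pla2g7 (2.20) lie farthest right, Reln (-2.31) and Serpine2 (-1.85) farthest left, and most called genes lie within 1 log2 unit of 0.

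Markers of other cells were looked at because Apoe, Lpl and Abca1 are also products of macrophages and fat cells, and in bulk RNA fewer cells of a type cannot be told apart from less RNA per cell. Of 10 measured adipocyte markers 0 were called, and their summed deposited level was 472 to 890 units in S-Bdc and 289 to 613 units in L-Bdc. Adipoq, Lep, Retn and Lipe were above background on 0 arrays, while 6 of the 10 were above it on at least 3 arrays. Cebpa was above background in 3 cultures of S-Bdc and 4 of L-Bdc (-0.02, adjusted p = 0.932). Cfd gave 0.70 (adjusted p = 0.0761) and was called under 5 of 14 alternatives, and Pparg was called under 3 of 14. Dgat2 gave 0.60 (adjusted p = 0.131), and the part of these genes in the Lpl and Apoe differences was not tested. Of 16 macrophage markers 0 were called, with sums of 366 to 477 units in S-Bdc and 369 to 653 units in L-Bdc. Cd14 gave -0.15 (adjusted p = 0.333) and Itgam -0.08 (adjusted p = 0.435). Adgre1, Cd163, Ptprc, Aif1, Tyrobp, Marco and C1qc were above background on 0 arrays, while 5 of the 16 were above it on at least 3 arrays. C1qa and Cx3cr1 were each above background in 3 cultures of S-Bdc and 4 of L-Bdc (adjusted p = 0.966 and 0.8). Cd14 averaged 348 units in S-Bdc and 397 units in L-Bdc, the larger part of the macrophage sums. Of 8 meningeal markers, Crabp2 rose by 0.67 ± 0.17 (SE, adjusted p = 0.0386, lost under 6 of 14 alternatives), while Ptgds, Aldh1a2, Slc6a13, Cldn11 and Gjb6 were above background on 0 arrays. Of 8 glial markers, Cnp was called (0.39, adjusted p = 0.00341), a call lost under 3 of 14 alternatives. Endothelial, muscle and chondrocyte markers gave 0 calls, their named genes being Flt1 (-0.15, adjusted p = 0.195), Cldn5 (-0.05, adjusted p = 0.775), Acta1 (-0.19, adjusted p = 0.5), Col11a2 (-0.17, adjusted p = 0.395), Col2a1 (-0.09, adjusted p = 0.391) and Myod1 (-0.28, adjusted p = 0.142, called under 3 of 14 alternatives). Col2a1 was above background on 0 arrays. Of 6 osteoclast markers, Mmp9 was called lower, and their summed level was 1483 to 2312 units in S-Bdc and 1808 to 2281 units in L-Bdc. Ctsk, at means of 1800 units in S-Bdc and 1982 units in L-Bdc, was not called (-0.15, adjusted p = 0.327). Calcr, Oscar, Atp6v0d2 and Tnfrsf11a were above background on 0 arrays.

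Of 11 osteoblast markers 9 were above background on at least 3 arrays, but some were at or near background. Alpl was above background on 5 arrays of each site, at means of 60 units in S-Bdc and 47.1 units in L-Bdc (adjusted p = 0.262). Col1a2 averaged 11567 units in S-Bdc and 11716 units in L-Bdc (adjusted p = 0.947). Osteocalcin (Bglap) averaged 7.45 units in S-Bdc and 6.61 units in L-Bdc, below the limit of 8.514 units, and was above it in 3 cultures of S-Bdc and 1 of L-Bdc. The transcription factor Sp7 averaged 6.32 units in S-Bdc and 6.91 units in L-Bdc, Dmp1 was above the limit in 1 culture of each site, and Phex in 0. Col1a1, the main collagen of bone, rose by 0.58 ± 0.06 (SE, adjusted p = 0.000382), and Spp1, osteopontin, fell by 1.81 (adjusted p = 3.13e-05). The summed osteoblast level was 26056 to 30586 units in S-Bdc and 31543 to 36491 units in L-Bdc, and its part in the lipoprotein genes was not tested. This sum mixes bright genes that went opposite ways. Spp1 fell, while Col1a1 averaged 5486 units in S-Bdc and 3634 units in L-Bdc. The sum is therefore not a measure of osteoblast content.

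The genes most like each called member over the 10 arrays were found among 7375 other genes by Pearson's r of normalised log2 signals. These genes were above background on all 5 arrays of at least 1 site. Car4 and Crhbp, above background in 1 and 2 L-Bdc cultures, entered only through S-Bdc. The points share arrays and the site, so r is a description. Each called member differs by site, so r over the 10 arrays counts the site difference again. For Pla2g7 they were Crhbp and Cpt2 (0.99 each) and Car4 (0.98), for Apoe Tbc1d9b (0.98), Sirpa and Mycbp2 (0.97 each), for Lpl Vps26a (0.95), Gca (0.93) and Plagl1 (0.92), and for Abca1 Nod1, Gfpt2 and Sp110 (0.97 each). With each site's mean taken off, other genes led, except Vps26a for Lpl (0.93). They were Prrc1 (0.98), Stimate (0.95) and Cyp4b1 (0.94) for Pla2g7, Tcirg1 (0.94), Plat (0.93) and Sox4 (0.92) for Apoe, Ctrl and Tinf2 (0.90 each) for Lpl, and Nrep (0.94), Mcm3ap and Setd5 (0.90 each) for Abca1. Cpt2, a called gene of the fatty acid list, differs by site itself, so its r with Pla2g7 over the arrays repeats that difference. Cpt2 was not among the genes that led for Pla2g7 with the site means taken off.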

How the data were processed

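mRNA of 10 cultures was measured on Illumina rat BeadChips, 1 array per culture, 5 per site. The deposited raw table holds average bead signal as intensity on a linear scale, which the authors exported from BeadStudio. The deposited value table holds processed intensity of the same arrays, with medians of 9.36 to 9.40 and 24.1% of values at or below 0. Its background and normalisation settings are not given in the sources used here.

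Raw and value rows were joined by rank profile across arrays. Each of the 22517 raw rows found its partner in both directions (largest rank distance 0.264% of ranks), and 6 value rows had none. Of the probes, 13787 had 1 platform symbol and 8730 none. Where a gene had several probes, the one with the highest mean was used. Raw medians ran from 40.6 to 48.1 units, and the number of arrays limits the precision. The background range ended at 8.514 units of the value table.

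After normexp correction (offset 50) and the log2 transform, limma 3.58.1 (R 4.3.3) was used for quantile normalisation, and rat and site were fitted with lmFit and eBayes. The Benjamini-Hochberg adjustment covered every probe, the threshold was 0.05, and the steps were tested on simulated data. "At least" folds set a site against the higher of the background limit and its own signal. The labels give both cultures of a number to the same rat, and deviations from site means correlated within rats at 0.0597 to 0.25. Alternatives changed the background correction, normalisation, filter, array weights, block, source of values and rats. Members and lists were chosen with earlier results of these data known. Named genes were the members, up to 4 called genes per list (2 where none was called), the 3 most like each called member on each measure, and Reln and A2m. Not every gene of this rule is reported here. Scd, Ch25h, Acsl3, Ech1, Slc27a1, Plau, Dab1, Nr1h2, Nr1h3, Abcg1, Srebf1, Lrp8, Cd36, Fabp4, Dgat2, Ctsk, Bglap, Sp7, Dmp1 and the markers at background were added after their values were seen. The same holds for Alpl, Col1a2, Abca2, Cebpa, C1qa and Cx3cr1. Calls of Scd, Ch25h, Acsl3, Ech1, Slc27a1, Plau and Abca2 were not followed under the alternatives.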

Additional observations from a re-analysis of the deposited data

Results flagged for a closer look

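Among 126 groups of 5 cultures, from 63 named genes, 13 held a culture far from the others by Dixon's criterion (a gap over range above 0.71). For independent groups chance flags about 1 in 20. Gfpt2, Nrep, Setd5, Prrc1, Car4 and Mycbp2 were picked for likeness to a member over these same arrays. The groups are therefore not independent, and the count is only a description. Values are normalised log2 signals. Of the measured lipoprotein genes this was Abca1, at 6.12 in L-Bdc of rat 1, below 6.39 to 6.47 in the other L-Bdc cultures. L-Bdc of rat 1 was also low in Ptafr (6.49, others 6.95 to 7.04) and in Gfpt2 (6.71, others 7.17 to 7.34), a gene picked for its likeness to Abca1. S-Bdc of rat 1 was low in Scarb2 (9.41, others 9.94 to 10.04) and Spp1 (10.87, others 11.59 to 11.87). S-Bdc of rat 5 was low in Olr1 (6.97, others 7.43 to 7.56), and high in Nrep (6.47, others 6.22 to 6.23) and Setd5 (8.74, others 8.50 to 8.56). It was also flagged low in Col2a1 (5.84, others 5.91 to 5.93), which was above background on 0 arrays. L-Bdc of rat 2 was high in Mycbp2 (9.79, others 9.54 to 9.61) and Prrc1 (8.69, others 8.63 to 8.64). L-Bdc of rat 4 was high in Cfd (7.79, others 6.69 to 6.79), and L-Bdc of rat 5 in Car4 (6.29, others up to 6.07).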

How the results depend on the processing

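Probes called numbered 2050, against 1268 with median scaling, 870 without normalisation between arrays, 209 on deposited values with a floor of 16 units, and 1323 to 2219 with each rat left out in turn, the lowest without rat 3. Without the pairing by rat (no replicate block) 1915 probes, 4 members and 30 list genes were called, against 33 list genes with it. List genes called were 20 without normalisation, 5 with the floor and 20 to 38 with a rat left out, the lowest without rat 3. With the floor, 1 member (Pla2g7) was called. Apoe then gave 1.57 (adjusted p = 0.0957), Lpl 0.48 (adjusted p = 0.0876) and Abca1 1.30 (adjusted p = 0.0526), and Lpl without normalisation gave 0.56 (adjusted p = 0.0519). Pla2g7 kept its call under all 14 alternatives, with adjusted p up to 0.0443. Vldlr ran from -0.027 (without rat 1, adjusted p = 0.942) to 0.24 with a rat left out. Among likeness genes, Sox4 ran from -0.22 to 0.14 (without rat 2) and Setd5 from -0.009 (without rat 5) to 0.092 with a rat left out, and Ctrl turned to 0.001 without normalisation, none called. Dhcr7 lost its call under 11 of 14 alternatives, Dab2 under 10, Mmp9 under 8, Nck2 and Crabp2 under 6 each, Apool and Ptafr under 5 each, and Scarb2, Cpt1a, Pafah1b2 and Cnp under 3 each. Cfd, otherwise not called, gained a call under 5, and Pparg and Myod1 under 3 each. Why these calls changed was not tested. 2 named genes at the floor on every array gave no value there, and the alternative of other probes could not be run for the members, which have 1 probe each. Abca1 and Mylip lie near background, which limits their folds.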
